A study of Mus musculus with 16 samples.

Results

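The 10 genes Cdkn1a, Mdm2, Bax, Eda2r, Ccng1, Btg2, Phlda3, Gadd45a, Gadd45b and Trp53inp1, all targets of the tumour suppressor p53 or genes that arrest cell growth, were followed in mouse liver after hepatic loss of Tsc1 and after alcohol. They were taken by symbol from a table of read counts, and all 10 were found among its 55487 rows. All 10 were also among the 14346 genes that passed the filter on low counts and were tested. Eda2r passed that filter through the knockout groups, since it had 2 to 11 counts per library in wild type. Liver RNA from C57BL/6J mice was sequenced in 16 libraries, 4 for each of 4 groups. The labels give 10 days as the time of all of them. KO-EtOH livers lacked hepatic Tsc1 and came from mice on the Gao-binge regimen, in which ethanol is fed over days and a binge dose is given at the end. KO-ctr livers carried the same knockout under the control diet. WT-EtOH livers were wild type on the Gao-binge regimen, and WT-ctr livers were wild type on the control diet. The Tsc1 protein belongs to the complex that holds the growth kinase mTORC1 in check. The labels used here do not name the promoter behind the deletion, the exon removed, or whether a group's libraries stand for different mice, so p-values measure the spread between libraries.

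The transcription factor p53 accumulates when DNA damage and other stresses block its breakdown by Mdm2, and it then activates genes for cell cycle arrest, DNA repair and cell death. Mdm2 is itself a p53 target, which closes a feedback loop. Several of these genes also answer to other signals in hepatocytes, among them growth factors, nutrients, glucocorticoids and the integrated stress response, and can change with no change in p53.

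Total counts ran from 14.75 to 21.757 M per library. Tsc1 itself averaged 14.3 ± 1.93 CPM in KO-EtOH, 18.5 ± 3.29 CPM in KO-ctr, 18.4 ± 1.76 CPM in WT-EtOH and 26.6 ± 2.52 CPM in WT-ctr livers (SD, n = 4 each; CPM are counts scaled to library size with TMM factors). Its log2 fold change with Tsc1 loss was -0.52 ± 0.13, adjusted p = 0.0147, on control diet and -0.36 ± 0.13, adjusted p = 0.0386, after ethanol, where the libraries overlapped. Ethanol in wild type lowered Tsc1 by about as much, with a log2 fold change of -0.53 ± 0.13, adjusted p = 0.00487, and no overlap of the libraries, and in knockout it gave -0.37 ± 0.13, adjusted p = 0.0686. The control-diet call was lost without KO-ctr library 3 or WT-ctr library 4 (log2 fold changes -0.46 and -0.46), and the call after ethanol was lost without any one of KO-EtOH 1, 2 or 3, WT-EtOH 1, 2 or 3, or WT-ctr 1, 3 or 4 (-0.43 to -0.28 over all 16 omissions). Both genotype calls were also lost when libraries were scaled by total counts in place of TMM (-0.40 and -0.17), and the one after ethanol with the replicate block (adjusted p = 0.0549), with no filter (adjusted p = 0.0762), in a fit of the compared groups alone (adjusted p = 0.0713) and without KO-EtOH libraries 1 and 2 (adjusted p = 0.218) or WT-EtOH libraries 1 and 4, a pair chosen after the values were seen (adjusted p = 0.0663). The ethanol call in wild type was lost without WT-EtOH libraries 1 and 4 (-0.47, adjusted p = 0.0590) and held in every omission of 1 library. That scaling moved the median of all tested genes by 0.12 for Tsc1 loss on control diet, 0.20 for Tsc1 loss after ethanol, -0.14 for ethanol in wild type and -0.05 for ethanol in knockout, so changes below are relative to the TMM centre. Of all genes called, 83.8%, 76.3%, 34.5% and 39.7% were higher under total counts in these comparisons, against 60.1%, 50.6%, 52.5% and 49.6% with TMM. Reads from a deleted exon could not be told apart from the rest of the gene in these counts. Mitochondrial transcripts took 5.90 to 9.65% of counts in KO-EtOH, 4.83 to 5.80% in KO-ctr, 5.08 to 5.84% in WT-EtOH and 3.51 to 4.22% in WT-ctr livers. The 10 hepatocyte markers were present in every library, with summed levels of 56839 to 109613 CPM in KO-EtOH, 66891 to 69509.7 CPM in KO-ctr, 123490.0 to 158181 CPM in WT-EtOH and 109112 to 126384 CPM in WT-ctr livers. Such sums weigh the most abundant markers most. The median log2 fold change of the 10 with Tsc1 loss was -0.11 on control diet and -0.23 after ethanol. In whole liver, fewer cells of a type and less RNA per cell cannot be told apart.

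The promoter windows of 9 of the 10 genes were found in RefSeq, from 250 bases before to 50 bases after the start of each gene on build GRCm38.p6. Trp53inp1 was not among them. A p53 half-site, the 10-base motif that pairs up to form a p53 response element, was searched on both strands and stood in 8.36% of the 32817 mouse promoter windows. Among these genes it stood in the windows of Cdkn1a, Mdm2, Bax, Ccng1 and Gadd45a. The windows shown are those of Cdkn1a, the gene with the largest ethanol change of the 10, of Bax and Ccng1, which rose with Tsc1 loss on both diets, and of Btg2, which held no p53 half-site but the cAMP response element TGACGTCA, present in 1.79% of windows. Capitals mark the p53 half-sites in the first 3 windows and TGACGTCA in the window of Btg2, and each is written 5′ to 3′ on the strand of the gene.
Cdkn1a, upstream start, chr17:29090729-29091028, plus strand: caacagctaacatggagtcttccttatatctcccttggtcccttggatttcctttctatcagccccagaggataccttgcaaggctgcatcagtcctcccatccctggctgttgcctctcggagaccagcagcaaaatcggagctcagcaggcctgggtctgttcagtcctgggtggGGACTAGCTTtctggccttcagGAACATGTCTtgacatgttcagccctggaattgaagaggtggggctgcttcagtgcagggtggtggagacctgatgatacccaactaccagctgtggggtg
Bax, chr7:45466849-45467148, minus strand: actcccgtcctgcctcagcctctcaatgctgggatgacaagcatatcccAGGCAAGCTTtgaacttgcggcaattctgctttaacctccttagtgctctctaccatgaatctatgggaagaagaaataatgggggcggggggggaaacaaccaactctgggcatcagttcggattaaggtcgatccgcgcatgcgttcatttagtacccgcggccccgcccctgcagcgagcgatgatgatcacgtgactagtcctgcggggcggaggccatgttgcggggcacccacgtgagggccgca
Ccng1, chr11:40755237-40755536, minus strand: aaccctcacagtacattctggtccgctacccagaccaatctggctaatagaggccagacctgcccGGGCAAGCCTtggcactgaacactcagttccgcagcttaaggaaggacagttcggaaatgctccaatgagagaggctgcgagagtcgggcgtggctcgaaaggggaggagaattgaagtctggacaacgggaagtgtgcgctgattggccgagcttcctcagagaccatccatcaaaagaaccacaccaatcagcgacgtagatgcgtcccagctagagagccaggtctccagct
Btg2, chr1:134079106-134079405, minus strand: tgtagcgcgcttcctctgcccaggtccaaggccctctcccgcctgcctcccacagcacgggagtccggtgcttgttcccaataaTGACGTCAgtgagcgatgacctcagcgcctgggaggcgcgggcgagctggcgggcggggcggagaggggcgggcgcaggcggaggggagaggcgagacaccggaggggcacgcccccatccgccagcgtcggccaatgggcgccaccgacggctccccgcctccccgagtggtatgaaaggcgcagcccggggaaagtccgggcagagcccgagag

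The Cdkn1a window held 2 half-sites, GGACTAGCTT beginning 73 bases and GAACATGTCT beginning 51 bases before the start. The half-site of Bax, AGGCAAGCTT, began 201 bases before its start and that of Ccng1, GGGCAAGCCT, 185 bases before. Mdm2 carried GAACTTGCCT 186 bases before the start in chr10:117710709-117711008 on the minus strand. Gadd45a carried GGGCTAGCCC 40 bases before the start in chr6:67037358-67037657, also on the minus strand. The window at the second Cdkn1a start and those of Eda2r, Phlda3 and Gadd45b held none. The E-box CACGTG, in 7.15% of all windows, stood in those of Bax, Eda2r and Gadd45b, and the forkhead motif TGTTTAC, in 3.65%, in those of Eda2r and Mdm2. The AP-1 motif TGANTCA (7.81% of windows), the glucocorticoid receptor half-site TGTTCT (19.0%) and the CArG box (1.63%) stood in none of the 10 windows. No match of one motif overlapped a match of another in these windows, both strands were searched for each, and a match describes letters, not binding.

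By their calls, 8 of the 10 genes fell into 2 classes. Bax, Eda2r and Ccng1 rose with Tsc1 loss on either diet and did not pass the test for ethanol in either genotype, whereas Cdkn1a, Btg2, Gadd45a, Gadd45b and Trp53inp1 rose with ethanol in wild type and were lower in KO-EtOH than in WT-EtOH livers. Mdm2 was called in none of the 4 pairwise comparisons, and Phlda3 for Tsc1 loss after ethanol alone. The classes follow the threshold, not the size of change. With Tsc1 loss on control diet the uncalled log2 fold changes of Btg2 and Cdkn1a were 1.48 and 1.22, against 0.79 for Bax and 0.62 for Ccng1. DESeq2 called both Btg2 and Cdkn1a there. Trp53inp1, Gadd45b and Gadd45a were at 0.60, 0.21 and 0.10. Calls were made with edgeR's quasi-likelihood test, at an adjusted p under 0.05 by Benjamini and Hochberg over all tested genes. On control diet, Tsc1 loss raised 3 of the 10 and lowered 0, against 12.3% of all tested genes called, 7.40% higher and 4.91% lower. DESeq2, total counts in place of TMM and a fit of only the groups compared each called 5 higher and 0 lower, and at an unadjusted p under 0.05 there were 6 higher and 0 lower. After ethanol, Tsc1 loss raised 4 and lowered 5, against 38.7% of all tested genes called, 19.6% higher and 19.1% lower. Both counts of raised genes include Eda2r, which passed the filter on low counts through the knockout groups. In wild type, ethanol raised 5 and lowered 0, against 33.5% of all tested genes called, 17.6% higher and 15.9% lower, and DESeq2 likewise called 5 higher and 0 lower, with 6 higher and 0 lower at an unadjusted p under 0.05.

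**Figure D1:**
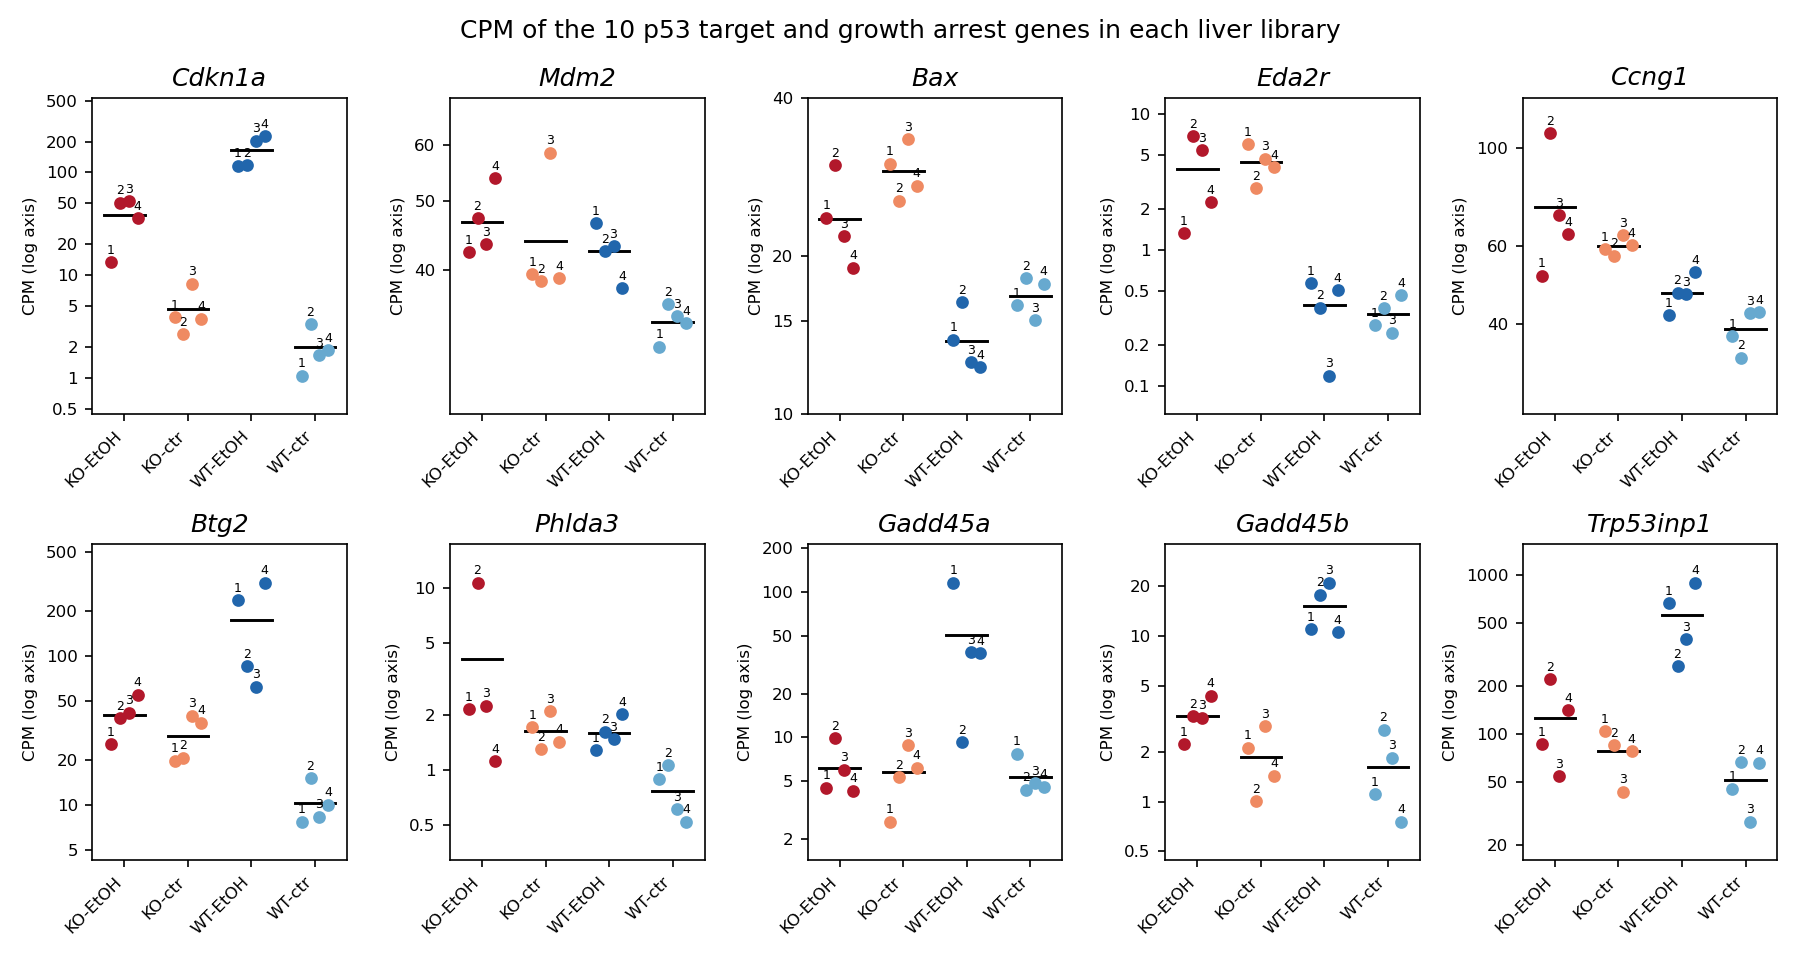
Each panel plots 1 gene, with CPM on a log axis against the 4 groups, a point for each library labelled with its number and a bar at the group mean. Cdkn1a, Btg2, Gadd45b and Trp53inp1 have their 4 highest libraries in WT-EtOH, with Cdkn1a at 117 to 225 CPM there, and Eda2r has its 8 highest libraries in the knockout groups.

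In knockout, ethanol raised 1 of the 10, Cdkn1a, and lowered 0, against 14.1% of all tested genes called, 7.00% higher and 7.11% lower. At an unadjusted p under 0.05 there were 3 higher and 1 lower, and DESeq2 likewise called 1 higher and 0 lower. The count became 2 without KO-EtOH library 2, where Bax was called lower, and without KO-EtOH library 4, where Phlda3 was called higher. The median log2 fold change of the 10 genes was 0.71 for Tsc1 loss on control diet, -0.99 for Tsc1 loss after ethanol, 2.13 for ethanol in wild type and 0.38 for ethanol in knockout. The median over all tested genes lay between -0.00895 and 0.00598 in these comparisons. The comparisons share groups, so that WT-EtOH livers, where the ethanol genes were high, enter both the ethanol effect in wild type and the Tsc1 effect after ethanol.

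**Figure D2:**
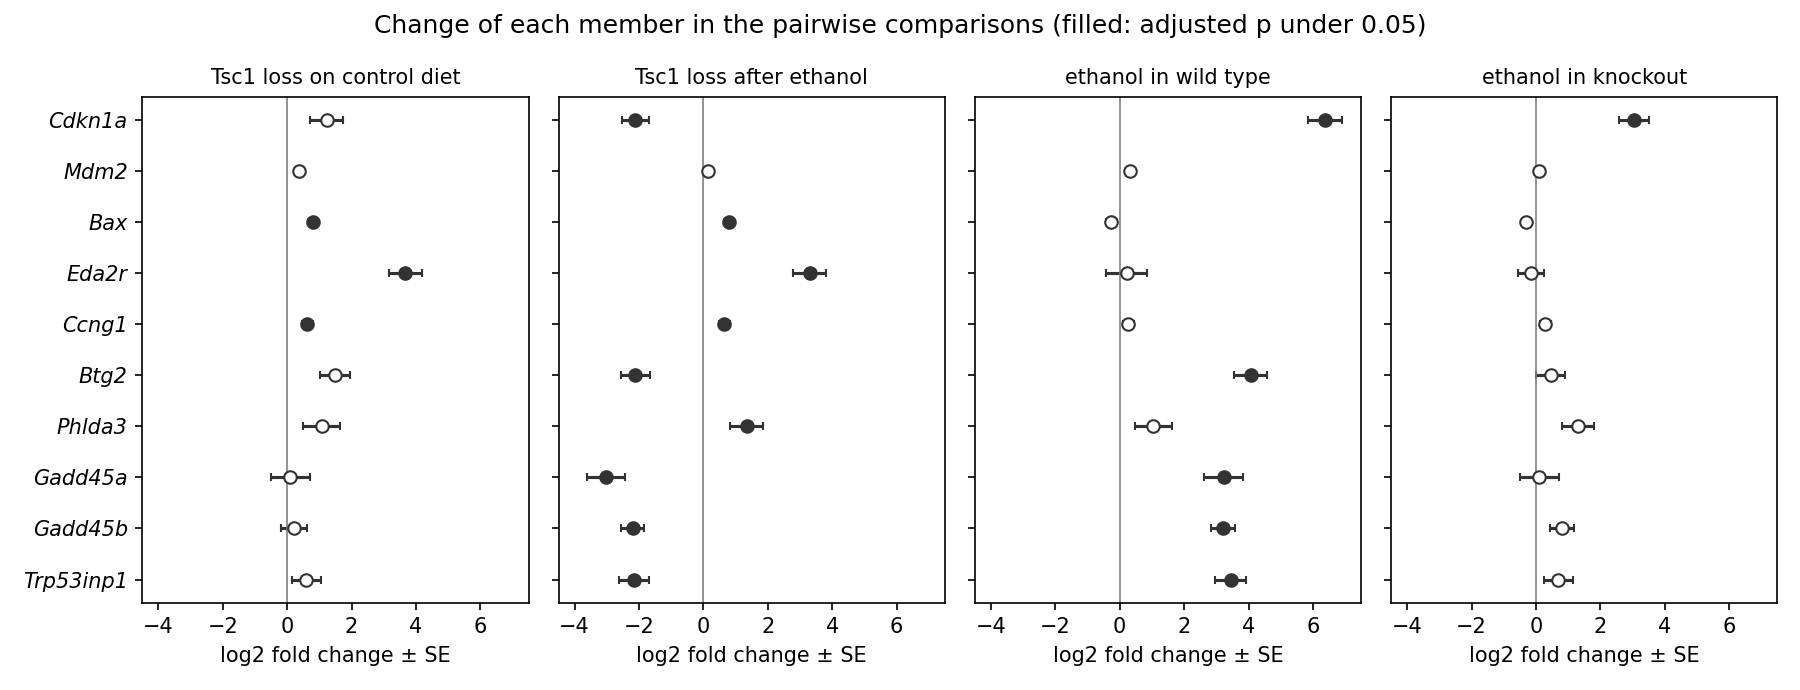
The log2 fold change of each of the 10 genes, with its standard error, is plotted in a panel for each pairwise comparison, and filled points have an adjusted p under 0.05. Filled points lie right of 0 for Bax, Eda2r and Ccng1 in the first and second panels, and Cdkn1a is the filled point of the fourth panel, at 3.03.

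Mdm2 (chromosome 10, 117688875 to 117710758, minus strand of GRCm38), which encodes the ubiquitin ligase that marks p53 for breakdown, passed the test in none of the 4 pairwise comparisons. Its levels were 42.3, 47.4, 43.4 and 53.9 CPM in KO-EtOH livers and 39.4, 38.5, 58.6 and 38.9 CPM in KO-ctr livers, libraries 1 to 4 in order. WT-EtOH livers had 46.6, 42.5, 43.2 and 37.6 CPM and WT-ctr livers 31.1, 35.7, 34.4 and 33.6 CPM. The 4 WT-ctr libraries lay below all others, and KO-ctr library 3 was the highest of the 16. The log2 fold change with Tsc1 loss was 0.38 ± 0.13, adjusted p = 0.0641, on control diet and 0.14 ± 0.13, adjusted p = 0.415, after ethanol. With ethanol it was 0.33 ± 0.13, adjusted p = 0.0554, in wild type and 0.09 ± 0.13, adjusted p = 0.674, in knockout. The 95% intervals before adjustment were 0.10 to 0.66 and -0.14 to 0.42 for Tsc1 loss, control diet first, and 0.05 to 0.61 and -0.19 to 0.37 for ethanol in wild type and in knockout. The ethanol effect in wild type was called without KO-ctr library 3 (0.33, adjusted p = 0.0131) and without WT-EtOH library 4 (0.39, adjusted p = 0.0453), and in a fit of the compared groups alone (0.33, adjusted p = 0.0327). The Tsc1 effect on control diet was called with total counts in place of TMM (0.50, adjusted p = 0.0388).

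Trp53, the gene of p53 itself, averaged 23.3 ± 3.07 CPM in KO-EtOH, 23.4 ± 3.92 CPM in KO-ctr, 18.1 ± 2.10 CPM in WT-EtOH and 19.3 ± 1.59 CPM in WT-ctr livers (SD, n = 4 each). It was higher with Tsc1 loss after ethanol (log2 fold change 0.37 ± 0.13, adjusted p = 0.0355), a call that was lost without KO-EtOH library 2 or 4 or WT-EtOH library 1 or 2 (0.30 to 0.45 over the omissions), in a fit of the compared groups alone (adjusted p = 0.0531), and without KO-EtOH libraries 1 and 2 (adjusted p = 0.144) or WT-EtOH libraries 1 and 4 (adjusted p = 0.0828). On control diet the Tsc1 effect was 0.28 ± 0.13, adjusted p = 0.182. The ethanol effects were -0.09 ± 0.13, adjusted p = 0.627, in wild type and -0.01 ± 0.13, adjusted p = 0.983, in knockout. The protein, through which p53 is mainly controlled, was not measured here.

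Cdkn1a (chromosome 17, 29090976 to 29100727, plus strand) encodes p21, the inhibitor of cyclin-dependent kinases through which p53 halts the cell cycle, and it had the largest ethanol response of the 10 genes. Its levels were 13.5, 50.9, 52.5 and 35.9 CPM in KO-EtOH livers and 3.90, 2.66, 8.28 and 3.77 CPM in KO-ctr livers. WT-EtOH livers had 117, 118, 204 and 225 CPM and WT-ctr livers 1.06, 3.36, 1.66 and 1.86 CPM. Every ethanol library stood above every control library of its genotype, and every WT-EtOH library stood above every KO-EtOH library. In wild type ethanol raised Cdkn1a 82.7-fold (log2 fold change 6.37 ± 0.54, adjusted p = 2.78e-06). In knockout it raised Cdkn1a 8.18-fold (3.03 ± 0.46, adjusted p = 0.00114). After ethanol, Tsc1 loss lowered Cdkn1a (-2.12 ± 0.42, adjusted p = 0.00161). On control diet the difference was 1.22 ± 0.52, adjusted p = 0.151, with overlapping libraries, although DESeq2 called it (adjusted p = 0.0342). An exon of a gene on the opposite strand overlaps Cdkn1a, and the strand setting of the counting is not given in the sources used here.

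Btg2 (chromosome 1, 134075170 to 134079120, minus strand) is an antiproliferative member of the BTG and Tob family that binds the CCR4-NOT deadenylase, and it also rose with ethanol in wild type, with a wide spread. It was at 25.7, 38.3, 41.7 and 55.1 CPM in KO-EtOH livers and at 19.9, 20.8, 39.7 and 35.8 CPM in KO-ctr livers. The levels were 237, 85.2, 62.1 and 310.4 CPM in WT-EtOH and 7.74, 15.2, 8.36 and 10.1 CPM in WT-ctr livers. WT-EtOH libraries 1 and 4 were far above the other two, yet all 4 stood above every library of the remaining groups, and all 4 WT-ctr libraries stood below them. Ethanol raised Btg2 16.7-fold in wild type (4.06 ± 0.51, adjusted p = 5.74e-05) and gave 0.47 ± 0.45, adjusted p = 0.526, in knockout, with overlapping libraries. Tsc1 loss after ethanol lowered it (-2.11 ± 0.46, adjusted p = 0.00287). On control diet the Tsc1 effect of 1.48 ± 0.47, adjusted p = 0.0545, missed the threshold, although the groups did not overlap. That effect was called by DESeq2 (adjusted p = 0.0187), with total counts in place of TMM (adjusted p = 0.0432), with a filter of 1 CPM in 4 libraries (adjusted p = 0.0496), in a fit of the compared groups alone (adjusted p = 0.00938) and without WT-EtOH library 2, 3 or 4 (1.49 in each) or both 1 and 4 (adjusted p = 0.00738). With WT-EtOH libraries 1 and 4 both left out, the Tsc1 effect after ethanol was -0.86 with an adjusted p of 0.0816.

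The Gadd45 proteins bind a kinase of the p38 and JNK pathways and slow growth after stress. Gadd45a (chromosome 6, 67035096 to 67037457, minus strand) was at 4.52, 9.94, 6.00 and 4.31 CPM in KO-EtOH livers and at 2.64, 5.32, 8.82 and 6.22 CPM in KO-ctr livers. It was at 116, 9.25, 38.4 and 38.0 CPM in WT-EtOH and at 7.74, 4.37, 4.86 and 4.59 CPM in WT-ctr livers. WT-EtOH library 1 was the highest, and library 2 of that group lay within the range of the KO-EtOH livers. Ethanol raised Gadd45a 9.35-fold in wild type (3.22 ± 0.61, adjusted p = 0.00119), and Tsc1 loss after ethanol lowered it (-3.02 ± 0.60, adjusted p = 0.00158). Without WT-EtOH library 1 these were 2.40 and -2.20, still called. The ethanol effect in knockout was 0.11 ± 0.60, adjusted p = 0.929, and the Tsc1 effect on control diet 0.10 ± 0.61, adjusted p = 0.942. Gadd45a also overlaps an exon of a gene on the opposite strand.

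Gadd45b (chromosome 10, 80930073 to 80932204, plus strand) was low, at 2.23, 3.29, 3.21 and 4.37 CPM in KO-EtOH livers and 2.12, 1.01, 2.87 and 1.43 CPM in KO-ctr livers. It stood at 11.0, 17.8, 21.1 and 10.6 CPM in WT-EtOH and at 1.11, 2.72, 1.84 and 0.755 CPM in WT-ctr livers. All 4 WT-EtOH libraries lay above the other 12. Ethanol raised Gadd45b 9.31-fold in wild type (3.22 ± 0.38, adjusted p = 1.76e-05), and Tsc1 loss after ethanol lowered it (-2.20 ± 0.35, adjusted p = 2.24e-04). Neither the ethanol effect in knockout (0.81 ± 0.38, adjusted p = 0.161) nor the Tsc1 effect on control diet (0.21 ± 0.40, adjusted p = 0.795) passed.

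Trp53inp1 (chromosome 4, 11156431 to 11174379, plus strand) encodes a stress-induced protein that acts with p53 and in autophagy. Its levels were 86.4, 222, 54.0 and 141 CPM in KO-EtOH livers and 104, 85.2, 43.1 and 77.5 CPM in KO-ctr livers. WT-EtOH livers had 667, 268, 396 and 898 CPM and WT-ctr livers 45.2, 66.3, 27.9 and 65.7 CPM. Every WT-EtOH library exceeded all 12 others. Ethanol raised Trp53inp1 10.9-fold in wild type (3.44 ± 0.50, adjusted p = 1.71e-04), and Tsc1 loss after ethanol lowered it (-2.15 ± 0.47, adjusted p = 0.00284). In knockout the ethanol effect was 0.70 ± 0.45, adjusted p = 0.326, with overlap, and the control-diet effect of Tsc1 loss was 0.60 ± 0.46, adjusted p = 0.444. Without WT-EtOH libraries 1 and 4, the Tsc1 effect after ethanol was -1.39 with an adjusted p of 0.0584.

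Ccng1 (chromosome 11, 40748552 to 40755311, minus strand) encodes cyclin G1, an atypical cyclin that directs a phosphatase to Mdm2. It was at 51.4, 108, 70.5 and 63.8 CPM in KO-EtOH livers and 59.1, 57.1, 63.5 and 60.3 CPM in KO-ctr livers. It was at 41.8, 47.1, 46.7 and 52.4 CPM in WT-EtOH and 37.5, 33.5, 42.3 and 42.5 CPM in WT-ctr livers. On control diet every knockout library exceeded every wild-type one, whereas after ethanol KO-EtOH library 1 lay within the wild-type range. Tsc1 loss raised Ccng1 on control diet (0.62 ± 0.17, adjusted p = 0.0216) and after ethanol (0.65 ± 0.17, adjusted p = 0.00592). The control-diet call was lost without KO-ctr library 3 (0.60, adjusted p = 0.0561), KO-ctr 4 (0.62, 0.0503), WT-ctr 1 (0.61, 0.0528) or WT-ctr 2 (0.56, 0.0589). After ethanol the effect was 0.40 without KO-EtOH library 2, the highest library, and was still called. The ethanol effects were 0.27 ± 0.17, adjusted p = 0.223, in wild type and 0.29 ± 0.16, adjusted p = 0.245, in knockout, and the one in wild type was called without KO-EtOH libraries 1 and 2 (0.27, adjusted p = 0.0428).

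Among the genes of cell death, Bax (chromosome 7, 45461697 to 45466898, minus strand), which opens the outer mitochondrial membrane in apoptosis, was higher in knockout livers. The values were 23.7, 29.8, 21.8 and 19.0 CPM in KO-EtOH and 30.0, 25.5, 33.4 and 27.2 CPM in KO-ctr livers. They were 13.9, 16.3, 12.6 and 12.3 CPM in WT-EtOH and 16.1, 18.1, 15.1 and 17.7 CPM in WT-ctr livers. All 8 knockout libraries stood above all 8 wild-type libraries. Tsc1 loss raised Bax 1.73-fold on control diet (0.79 ± 0.14, adjusted p = 0.00138) and 1.71-fold after ethanol (0.78 ± 0.14, adjusted p = 4.58e-04). Ethanol gave -0.29 ± 0.14, adjusted p = 0.122, in wild type and -0.30 ± 0.14, adjusted p = 0.147, in knockout. The effect in knockout was called without KO-EtOH library 2 (-0.43, adjusted p = 0.0396) and without libraries 1 and 2 of that group (-0.51, adjusted p = 0.0336). A predicted gene overlaps an exon of Bax on the same strand.

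Eda2r (chromosome X, 97333840 to 97377216, minus strand), a receptor of the tumour necrosis factor family that binds ectodysplasin A2, had the largest log2 fold change with Tsc1 loss of the 10 genes. It was at 1.33, 6.87, 5.41 and 2.25 CPM in KO-EtOH livers, from 22 to 121 counts, and at 6.02, 2.84, 4.71 and 4.09 CPM in KO-ctr livers, from 48 to 105 counts. It was at 0.569, 0.375, 0.119 and 0.507 CPM in WT-EtOH livers, from 2 to 11 counts, and at 0.278, 0.373, 0.246 and 0.465 CPM in WT-ctr livers, from 4 to 8 counts. Each of the 8 knockout libraries stood above every wild-type library. Tsc1 loss raised Eda2r 12.7-fold on control diet (3.67 ± 0.51, adjusted p = 2.51e-04) and 9.83-fold after ethanol (3.30 ± 0.50, adjusted p = 1.43e-04). These folds stand against few wild-type counts, and the gene passed the filter on low counts through the knockout groups. Both calls held when any one library was left out. Ethanol effects were 0.22 ± 0.63, adjusted p = 0.820, in wild type, where counts were near the filter, and -0.15 ± 0.40, adjusted p = 0.839, in knockout.

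Phlda3 (chromosome 1, 135766119 to 135769136, plus strand), whose product competes with the survival kinase Akt for membrane lipids, was called in 1 comparison, and that call rested on 1 library. It was at 2.17, 10.7, 2.26 and 1.12 CPM in KO-EtOH livers and 1.72, 1.30, 2.11 and 1.43 CPM in KO-ctr livers. It was at 1.29, 1.63, 1.49 and 2.03 CPM in WT-EtOH and 0.891, 1.07, 0.615 and 0.523 CPM in WT-ctr livers. KO-EtOH library 2 stood far above its group, and WT-ctr libraries lay below both WT-EtOH and KO-ctr libraries. Tsc1 loss after ethanol gave 1.34 ± 0.51, adjusted p = 0.0493, which came to 0.21 without KO-EtOH library 2. The call was kept only without KO-EtOH library 1, 3 or 4, and was lost in the other 13 omissions of 1 library. It was also lost with no filter (adjusted p = 0.110), with the replicate block (adjusted p = 0.113), in a fit of the compared groups alone (adjusted p = 0.138) and without KO-EtOH libraries 1 and 2 (adjusted p = 0.885) or WT-EtOH libraries 1 and 4 (adjusted p = 0.161). Without KO-EtOH library 2, Phlda3 was called for Tsc1 loss on control diet (1.07, adjusted p = 0.0218) and for ethanol in wild type (1.04, adjusted p = 0.0122). With only the groups compared both were called too (adjusted p = 0.0233 and 0.0199). With all libraries these were 1.07 ± 0.57, adjusted p = 0.250, and 1.04 ± 0.57, adjusted p = 0.174. Ethanol in knockout gave 1.31 ± 0.51, adjusted p = 0.0985, and 0.17 without KO-EtOH library 2. It was called without KO-EtOH library 4 (1.61, adjusted p = 0.0374).

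Of the markers of other cells, those of cholangiocytes moved with genotype on both diets, and those of macrophages and monocytes after ethanol. They are given beside the rise of Bax, Eda2r and Ccng1 in knockout livers. The summed level of the 10 cholangiocyte markers was 220.0 to 929 CPM in KO-EtOH and 308 to 579 CPM in KO-ctr livers. It was 59.5 to 70.1 CPM in WT-EtOH and 73.1 to 101 CPM in WT-ctr livers. Of the 9 that were tested, 5 were higher and 0 lower with Tsc1 loss on control diet, and 8 and 0 after ethanol, where 12.3% and 38.7% of all tested genes were called. KO-EtOH library 2, with the highest Phlda3, Ccng1 and Eda2r of its group, had the highest sum of cholangiocyte markers at 929 CPM and of macrophage markers at 365 CPM, and the lowest of hepatocyte markers at 56839 CPM. The 10 macrophage and monocyte markers summed to 151 to 365 CPM in KO-EtOH, 158 to 238 CPM in KO-ctr, 67.5 to 92.4 CPM in WT-EtOH and 135 to 198 CPM in WT-ctr livers. All 10 were higher with Tsc1 loss after ethanol and 1 on control diet, and ethanol in wild type lowered 7 and raised 0, where 33.5% of all tested genes were called. Of the 10 hepatocyte markers, Tsc1 loss raised 0 and lowered 1 under control diet and raised 0 and lowered 3 under ethanol, whereas ethanol raised 4 and lowered 0 in wild type. The called shares of 10%, 30% and 40% lay near the 12.3%, 38.7% and 33.5% of all tested genes. With total counts in place of TMM the splits of higher and lower were 0 and 1, 1 and 3, and 2 and 2.

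Sums of the 8 endothelial markers were 174 to 208 CPM in KO-EtOH, 155 to 189 CPM in KO-ctr, 158 to 198 CPM in WT-EtOH and 109 to 177 CPM in WT-ctr livers. Those of the 10 stellate cell and fibroblast markers were 257 to 545 CPM in KO-EtOH, 206 to 259.5 CPM in KO-ctr, 289.9 to 372 CPM in WT-EtOH and 189.8 to 302 CPM in WT-ctr livers. Neutrophil markers, 8 genes, reached 1.25 to 3.58 CPM in KO-EtOH, 1.38 to 3.03 CPM in KO-ctr, 1.24 to 10.1 CPM in WT-EtOH and 1.17 to 3.25 CPM in WT-ctr livers. Lymphocyte markers, also 8 genes, reached 1.87 to 4.10 CPM in KO-EtOH, 2.81 to 6.57 CPM in KO-ctr, 1.86 to 2.44 CPM in WT-EtOH and 4.12 to 7.30 CPM in WT-ctr livers. No gene of any marker list was at 0 in all libraries. With Tsc1 loss, 1 of 8 endothelial markers was higher on control diet and 1 after ethanol, with 0 lower in both. Of the 10 stellate cell and fibroblast markers, 0 were called on control diet, and 3 higher and 2 lower after ethanol. Of 4 tested lymphocyte markers, 1 was lower and 0 higher on control diet, and 0 were called after ethanol. Of 2 tested neutrophil markers, 0 were called on either diet. Over all tested genes, 12.3% and 38.7% were called. Ethanol raised 3 and lowered 0 endothelial markers in wild type, and raised 3 and lowered 1 in knockout. It raised 2 and lowered 1 stellate cell and fibroblast markers in wild type, and raised 1 and lowered 0 in knockout. Lymphocyte markers had 0 higher and 2 lower in wild type and 0 called in knockout, and neutrophil markers 0 called in either. The shares of all tested genes called for ethanol were 33.5% and 14.1%. The part of these cell types, and of the mitochondrial share, in the changes of the 10 genes was not tested.

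Per kilobase of exon, the order of the 10 genes within a group changed with ethanol in wild type. In WT-EtOH livers the highest mean levels were those of Trp53inp1 at 86.0, Btg2 at 63.3, Cdkn1a at 46.6 and Gadd45a at 28.6 CPM per kilobase. In WT-ctr livers they were those of Ccng1 at 11.1, Bax at 10.6, Trp53inp1 at 7.92 and Mdm2 at 6.63, and Cdkn1a was at 0.558 CPM per kilobase. In KO-EtOH livers Ccng1 at 20.9 and Trp53inp1 at 19.4 led, and Cdkn1a reached 10.8. KO-ctr livers had Bax at 18.4 and Ccng1 at 17.1 CPM per kilobase first. Eda2r was the lowest in every group, at 0.673 in KO-EtOH, 0.749 in KO-ctr, 0.0666 in WT-EtOH and 0.0578 CPM per kilobase in WT-ctr livers.

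The summed level of the 10 genes was 253 to 527 CPM in KO-EtOH and 240.2 to 269 CPM in KO-ctr livers. It was 606 to 1587 CPM in WT-EtOH and 137 to 181 CPM in WT-ctr livers. All WT-EtOH sums lay above, and all WT-ctr sums below, those of the other groups. Trp53inp1, Btg2 and Cdkn1a, at means of 557, 174 and 166 CPM in WT-EtOH livers, made up most of the sums there. The sums therefore do not describe each of the 10 genes.

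Whether the ethanol response differed between genotypes was asked by the interaction, the ethanol effect in knockout minus that in wild type. It was called for 4 of the 10 genes, all lower, and for 0 higher, against 1.81% of all tested genes called, 1.28% lower and 0.523% higher. At an unadjusted p under 0.05 there were 5 lower and 0 higher, and DESeq2 called 5 lower and 0 higher. The interaction of Cdkn1a was -3.34 ± 0.66, adjusted p = 0.0267, and that of Btg2 -3.60 ± 0.66, adjusted p = 0.0226. Gadd45b had -2.41 ± 0.53, adjusted p = 0.0320, and Trp53inp1 -2.74 ± 0.65, adjusted p = 0.0489. Gadd45a reached -3.12 ± 0.84 with an adjusted p of 0.0747, was called by DESeq2 (adjusted p = 0.00998) and without WT-EtOH library 2 (-3.46), and came to -2.30 without WT-EtOH library 1.

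**Figure D3:**
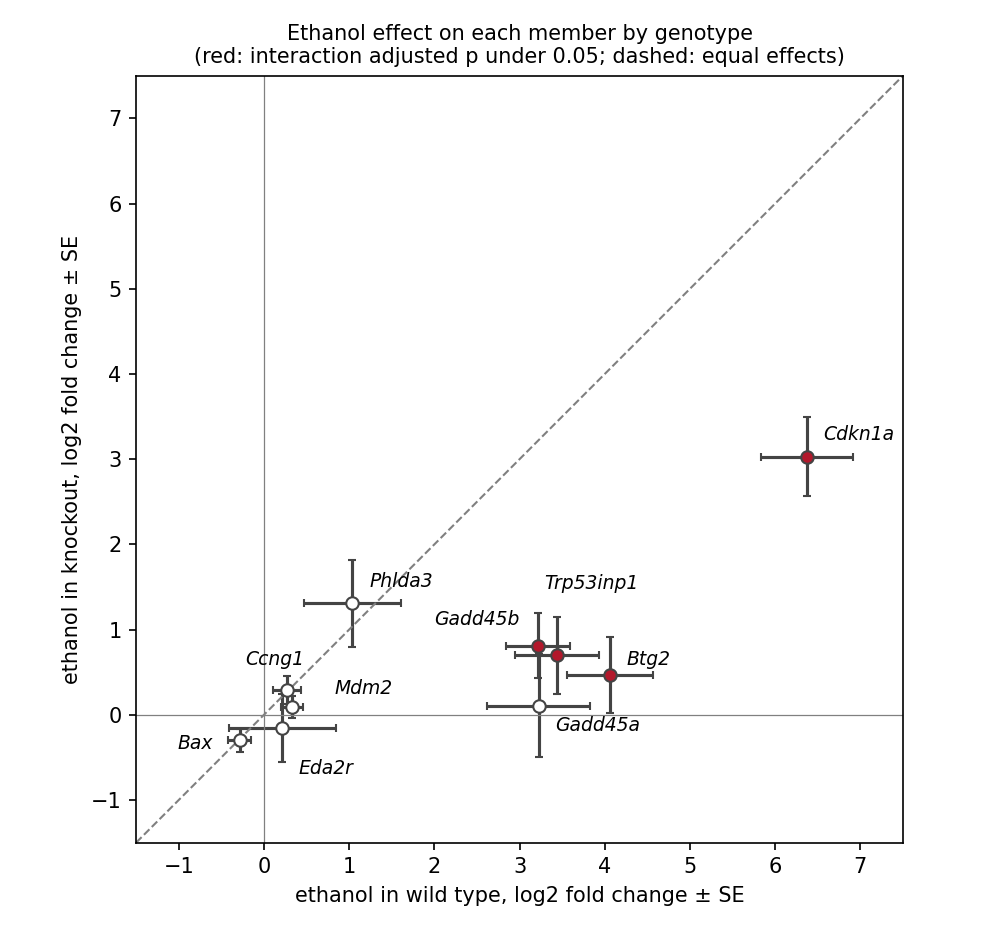
The log2 fold change with ethanol in knockout (vertical) is plotted against that in wild type (horizontal) for the 10 genes, with standard errors, a dashed line of equal effects and red points where the interaction has an adjusted p under 0.05. Cdkn1a lies at 3.03 in knockout and 6.37 in wild type, and Btg2, Gadd45b and Trp53inp1 also lie below the line, while Bax, Eda2r, Ccng1 and Mdm2 sit near its crossing with 0.

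These interactions kept their sign in every omission of 1 library, but not their calls. Over the omissions of 1 library, Cdkn1a ranged over -3.73 to -2.90 and lost its call without KO-ctr 1 or 3, WT-ctr 1, 3 or 4, or WT-EtOH 4. Btg2 ranged over -3.86 to -3.15 and lost the call without WT-ctr 1, 3 or 4. Gadd45b ranged over -2.80 to -2.12 and lost it without KO-EtOH 1 or 3, KO-ctr 1, 3 or 4, or WT-ctr 1, 3 or 4. Trp53inp1 ranged over -3.16 to -2.41 and kept it only without KO-EtOH 2, WT-EtOH 2 or WT-EtOH 3. With no filter the calls of Cdkn1a, Gadd45b and Trp53inp1 were lost (adjusted p = 0.0561, 0.0621 and 0.106), and with total counts in place of TMM that of Gadd45b (adjusted p = 0.0516) and that of Trp53inp1. Those of Btg2, Gadd45b and Trp53inp1 were lost without KO-EtOH libraries 1 and 2 (adjusted p = 0.0758, 0.0880 and 0.0727), and those of Cdkn1a and Trp53inp1 without WT-EtOH libraries 1 and 4 (adjusted p = 0.102 and 0.221). Over the omissions of 1 library, the number called was 0 without WT-ctr library 1, 3 or 4 and 1 without KO-ctr library 1 or 3. It was 2 without KO-EtOH library 1 or 3, KO-ctr library 4 or WT-EtOH library 4. The other 5 interactions were -0.24 ± 0.18, adjusted p = 0.498, for Mdm2, -0.01 ± 0.19, adjusted p = 0.977, for Bax, -0.37 ± 0.75 for Eda2r, 0.02 ± 0.23, adjusted p = 0.970, for Ccng1 and 0.27 ± 0.78, adjusted p = 0.886, for Phlda3. Their 95% intervals before adjustment were -0.64 to 0.15 for Mdm2, -0.44 to 0.41 for Bax, -1.99 to 1.26 for Eda2r, -0.49 to 0.53 for Ccng1 and -1.43 to 1.96 for Phlda3.

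A wider list of 36 further p53 targets, of which 35 were tested, was read beside the 10. With Tsc1 loss on control diet 9 rose and 1 fell, and after ethanol 13 rose and 3 fell. With ethanol 8 rose and 6 fell in wild type and 3 rose and 2 fell in knockout. The called genes were 28.6%, 45.7%, 14 of 35 and 14.3% of the list in these comparisons, against 12.3%, 38.7%, 33.5% and 14.1% of all tested genes, so that the shares after ethanol and with ethanol lay near those of all genes. The medians were 0.39, 0.07, 0.13 and 0.13 on the log2 scale in the same order. With total counts in place of TMM the splits of higher and lower were 9 and 0, 15 and 0, 6 and 8, and 2 and 1. Cyfip2, a partner of the fragile X protein, was at 11.8 to 32.4 CPM in KO-EtOH and 17.1 to 24.2 CPM in KO-ctr livers. It was at 1.25 to 1.41 CPM in WT-EtOH and 1.11 to 1.57 CPM in WT-ctr livers, so that no knockout library reached down to the wild-type range. Tsc1 loss raised it by 3.82 ± 0.26, adjusted p = 1.22e-07, on control diet and 4.15 ± 0.27, adjusted p = 4.36e-08, after ethanol. Ddit4l, an inhibitor of mTORC1 signalling, rose by 1.81 ± 0.32 and 3.89 ± 0.36 (adjusted p = 0.00171 and 2.56e-06). Ddit4l was low, at a mean of 2.97 CPM over the 16 libraries. Abhd4, a lipase of N-acyl phospholipids, rose by 0.71 ± 0.13 and 0.85 ± 0.13 (adjusted p = 0.00223 and 1.43e-04).

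Sulf2, a sulfatase of heparan sulfate, rose in all 4 comparisons. Its log2 fold changes were 1.76 ± 0.17 and 1.63 ± 0.16 with Tsc1 loss on the control diet and after ethanol, and 1.60 ± 0.17 and 1.46 ± 0.16 with ethanol in wild type and in knockout (adjusted p = 5.87e-06, 3.93e-06, 4.94e-06 and 5.74e-05). Plk2, a stress-induced polo-like kinase, rose with Tsc1 loss after ethanol by 1.50 ± 0.22, adjusted p = 9.79e-05. Gdf15, a circulating stress cytokine, was at 38.1, 20.2, 90.6 and 61.6 CPM in KO-EtOH and 20.3, 13.0, 98.3 and 61.0 CPM in KO-ctr livers. It was at 172, 88.3, 119 and 63.2 CPM in WT-EtOH and 4.12, 5.44, 2.15 and 3.83 CPM in WT-ctr livers. The WT-ctr libraries lay below all others, and the knockout libraries spread from 13.0 to 98.3 CPM. Gdf15 rose with Tsc1 loss on control diet (3.62 ± 0.67, adjusted p = 0.00312) and with ethanol in wild type (4.82 ± 0.69, adjusted p = 1.78e-04).

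**Figure D4:**
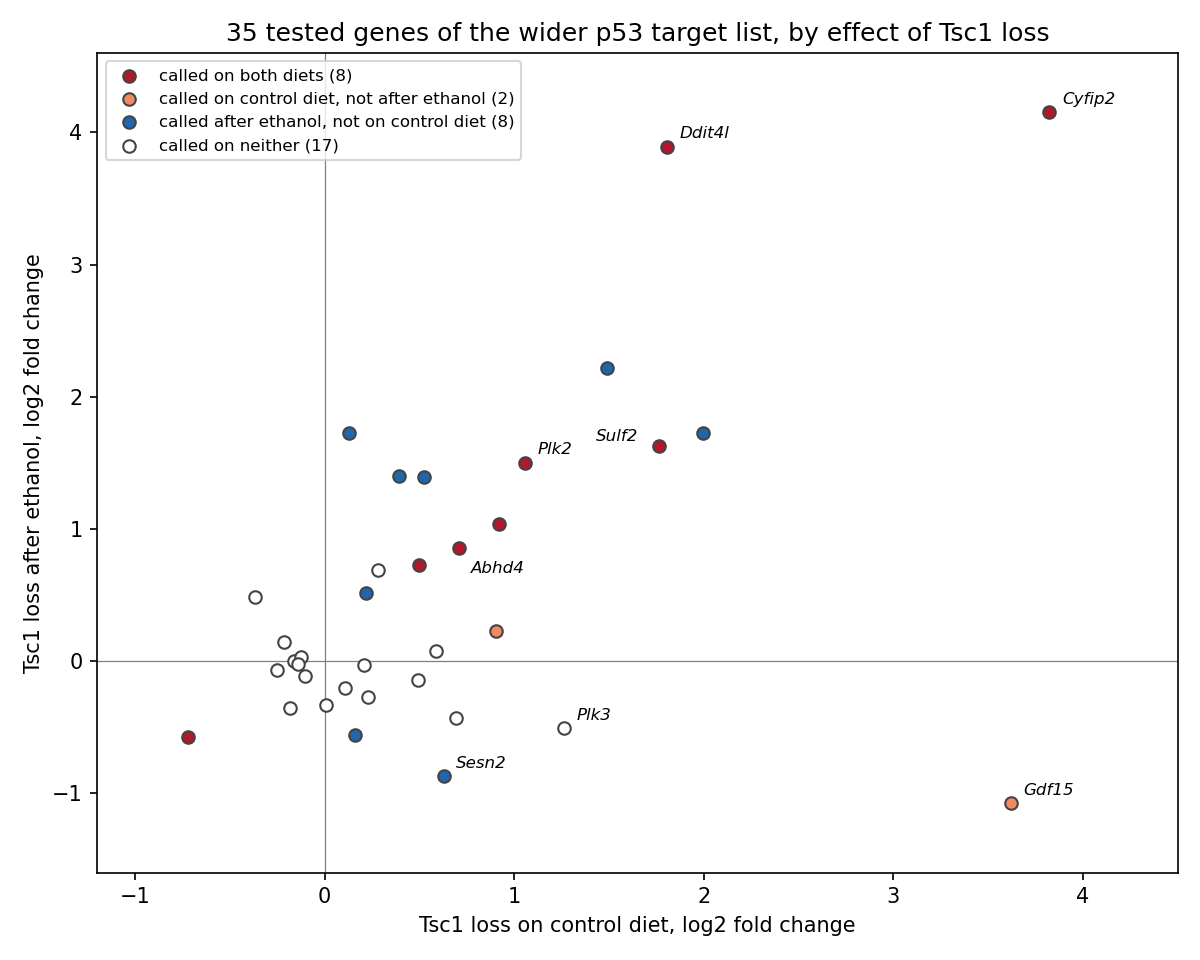
The 35 tested genes of the wider list are plotted by their log2 fold change with Tsc1 loss on control diet (horizontal) and after ethanol (vertical), with colours for where each was called. Of the 35, 8 were called on both diets, 2 on control diet, 8 after ethanol and 17 on neither, and Cyfip2 lies farthest up and to the right.

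Sesn2, which restrains mTORC1 when amino acids are short and is a target of both p53 and ATF4, rose with ethanol in wild type (2.71 ± 0.31, adjusted p = 2.50e-05) and in knockout (1.21 ± 0.30, adjusted p = 0.0160). Rrm2b, the p53-inducible subunit of ribonucleotide reductase, rose with ethanol in wild type (0.68 ± 0.16, adjusted p = 0.00350), whereas the mitochondrial reductase gene Fdxr fell (-0.71 ± 0.16, adjusted p = 0.00313). In knockout, the thiamine transporter gene Slc19a2 fell (-0.89 ± 0.16, adjusted p = 0.00249). Abhd4 (0.43 ± 0.13, adjusted p = 0.0357) and Fdxr (-0.53 ± 0.16, adjusted p = 0.0393) were also called there. Abhd4 lost that call without KO-EtOH 2, 3 or 4 or KO-ctr 1, 2 or 4 (0.37 to 0.53), with total counts in place of TMM (adjusted p = 0.0847) and in a fit of the compared groups alone (adjusted p = 0.0505), and Fdxr without KO-EtOH 2, 3 or 4 or any KO-ctr library (-0.64 to -0.46) and with total counts (adjusted p = 0.0660). The count in knockout was 3 without KO-EtOH library 4 or KO-ctr library 1, 2 or 4. Of the uncalled genes of the list, the most abundant were Plk3, with 1.26 ± 0.57, adjusted p = 0.177, and -0.51 ± 0.56, adjusted p = 0.498, for Tsc1 loss on control diet and after ethanol, and Ei24, with 0.13 ± 0.15, adjusted p = 0.536, and 0.35 ± 0.15, adjusted p = 0.119, for ethanol in wild type and in knockout.

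The interaction was called for 2 of the 35, against 1.81% of all tested genes, both named after their values were seen. It was -4.70 ± 0.88, adjusted p = 0.0235, for Gdf15 and 2.08 ± 0.49, adjusted p = 0.0404, for Ddit4l, a gene of low level here. The count was 0 without WT-ctr library 1, 3 or 4 and 1 without KO-EtOH 1 or 2, KO-ctr 2, 3 or 4, or WT-EtOH 1 or 4. Gdf15 ranged over -5.08 to -4.08 and Ddit4l over 1.80 to 2.27 in these omissions. Both calls were lost without KO-EtOH libraries 1 and 2 (adjusted p = 0.0733 and 0.0954) and without WT-EtOH libraries 1 and 4 (adjusted p = 0.0903 and 0.176), and that of Ddit4l with total counts in place of TMM (adjusted p = 0.0662). At an unadjusted p under 0.05 there were 3 higher and 7 lower, and DESeq2 called 1 higher and 2 lower.

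Of 18 genes that encode p53, its relatives and its regulators, 16 were tested and Trp63 and Trp73 were not. Tsc1 loss on control diet lowered 1 and raised 0 (4 and 1 at an unadjusted p under 0.05, 2 and 0 by DESeq2), and after ethanol it raised 4 and lowered 4. With total counts in place of TMM these were 0 and 0 on control diet and 5 and 1 after ethanol. Ethanol raised 1 and lowered 2 in wild type. In knockout it changed 0, with 0 higher and 1 lower at an unadjusted p under 0.05 and 0 by DESeq2. The called genes were 1, 8, 3 and 0 of 16 in these comparisons, against 12.3%, 38.7%, 33.5% and 14.1% of all tested genes. The median changes were -0.04, -0.04, -0.03 and -0.01 in that order. Atr, a DNA damage kinase, was lower with Tsc1 loss on control diet (-0.49 ± 0.14, adjusted p = 0.0328) and after ethanol (-0.51 ± 0.14, adjusted p = 0.00892). The control-diet call of Atr was lost without any KO-ctr library or without WT-ctr 2 or 3 (-0.55 to -0.40), and with total counts in place of TMM (-0.37, adjusted p = 0.203). Rchy1, a ubiquitin ligase of p53, fell with Tsc1 loss after ethanol (-0.55 ± 0.10, adjusted p = 6.22e-04) and rose with ethanol in wild type (0.53 ± 0.10, adjusted p = 8.88e-04). Chek2, a checkpoint kinase that phosphorylates p53, rose with Tsc1 loss after ethanol (1.67 ± 0.38, adjusted p = 0.00281) and fell with ethanol in wild type (-1.51 ± 0.38, adjusted p = 0.00621). It was low, at a mean of 1.72 CPM over the 16 libraries. Without KO-EtOH libraries 1 and 2 its Tsc1 effect was 1.09 with an adjusted p of 0.0503.

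Mdm4, the partner of Mdm2 that holds p53 inactive, fell with Tsc1 loss after ethanol (-0.42 ± 0.11, adjusted p = 0.00673), as did Rpl5, a ribosomal protein that binds Mdm2 (-0.52 ± 0.14, adjusted p = 0.00677). The calls of Mdm4, Rpl5 and Atr after ethanol were lost with total counts in place of TMM scaling, at -0.22, -0.30 and -0.31. Atm, the kinase that answers double-strand breaks, fell with ethanol in wild type (-1.01 ± 0.23, adjusted p = 0.00328). Usp7, the deubiquitinase of Mdm2 and p53 and the most abundant gene of this list that was not called, had log2 fold changes of -0.06 and -0.17 with Tsc1 loss on the control diet and after ethanol, and of 0.01 and -0.10 with ethanol in wild type and in knockout. The interaction was called for 0 of the 16, with 1 higher and 2 lower at an unadjusted p under 0.05 and 0 by DESeq2.

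Of 18 further CDK inhibitors and growth arrest genes, 16 were tested, without Cdkn2a and Cdkn2b. Tsc1 loss raised 1 and lowered 0 on control diet (2 and 0 at an unadjusted p under 0.05, 1 and 0 by DESeq2), and raised 3 and lowered 4 after ethanol. Ethanol raised 4 and lowered 4 in wild type, and raised 0 and lowered 3 in knockout (2 and 4 at an unadjusted p under 0.05, 0 and 3 by DESeq2). The called genes were 1, 7, 8 and 3 of 16, against 12.3%, 38.7%, 33.5% and 14.1% of all tested genes, and the shares after ethanol and for ethanol in knockout, 43.8% and 18.8%, lay near those of all genes. The medians were 0.22, 0.11, -0.06 and -0.09. Gas2, a growth arrest gene of the cytoskeleton, rose with Tsc1 loss on control diet (1.18 ± 0.19, adjusted p = 7.94e-04) and after ethanol (1.63 ± 0.19, adjusted p = 1.75e-05). Tob2 and Btg3, of the same antiproliferative family as Btg2, rose with ethanol in wild type by 1.66 ± 0.21 and 2.12 ± 0.27 (adjusted p = 3.58e-05 and 3.35e-05). Tob2 was lower with Tsc1 loss after ethanol (-1.32 ± 0.21, adjusted p = 2.07e-04), and Rbl1, a relative of the retinoblastoma protein, was higher (1.07 ± 0.23, adjusted p = 0.00170). Gas1, a membrane protein of growth arrest, fell with ethanol in wild type (-1.44 ± 0.35, adjusted p = 0.00560), and Gadd45gip1, a partner of Gadd45 proteins, fell with ethanol in knockout (-0.62 ± 0.12, adjusted p = 0.00316). Tob1, the most abundant uncalled gene of the list, had log2 fold changes of 0.26 and 0.21 with Tsc1 loss on the control diet and after ethanol, and of -0.09 and -0.13 with ethanol in wild type and in knockout. The interaction was called for 0 higher and 1 lower (2 and 4 at an unadjusted p under 0.05, 0 and 2 by DESeq2), for Tob2 (-1.39 ± 0.29, adjusted p = 0.0285), named after its value was seen. That call was lost without KO-EtOH 1, KO-ctr 1, 3 or 4, WT-EtOH 1 or 4, or WT-ctr 1, 3 or 4 (-1.61 to -1.24), with no filter (adjusted p = 0.0512), with the replicate block (adjusted p = 0.0526), and without KO-EtOH libraries 1 and 2 (adjusted p = 0.0840) or WT-EtOH libraries 1 and 4 (adjusted p = 0.142).

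Cell cycle genes that p21 is known to lower were read beside Cdkn1a, and 12 of 15 were tested, without Ccnb1, Cdc25c and Bub1. After ethanol 10 were higher and 0 lower in knockout than in wild type, with a median of 1.51, and on control diet 1 was higher and 0 lower (median 0.19). Ethanol lowered 4 and raised 0 in wild type (median -0.42) and raised 4 and lowered 0 in knockout (median 0.68). Over all tested genes, 38.7% were called for Tsc1 loss after ethanol, 12.3% on control diet, 33.5% for ethanol in wild type and 14.1% in knockout, so that the 33.3% of the list called for ethanol in wild type did not exceed the share of all genes. At an unadjusted p under 0.05 the counts were 11 and 0 for Tsc1 loss after ethanol and 2 and 1 on control diet, higher first, and 0 and 5 for ethanol in wild type and 7 and 0 in knockout. DESeq2 called 11 and 0, 1 and 0, 0 and 4, and 4 and 0 in that order. The proliferation marker Mki67 was at 6.51, 13.8, 5.35 and 3.81 CPM in KO-EtOH and 2.98, 2.78, 2.22 and 3.67 CPM in KO-ctr livers. It was at 0.982, 1.13, 1.73 and 2.03 CPM in WT-EtOH and 1.56, 2.56, 1.48 and 0.929 CPM in WT-ctr livers, and KO-EtOH library 2 was the highest. With Tsc1 loss after ethanol it rose by 2.33 ± 0.38, adjusted p = 2.63e-04, as did the cell cycle kinase gene Cdk1 by 1.77 ± 0.32, adjusted p = 4.78e-04, and the transcription factor gene E2f1 by 1.51 ± 0.18, adjusted p = 1.93e-05. E2f1 was the gene called on control diet (0.73 ± 0.18, adjusted p = 0.0123). Mcm5 and Aurka, of DNA replication and mitosis, fell with ethanol in wild type, with log2 fold changes of -1.74 ± 0.36 and -0.80 ± 0.21 (adjusted p = 0.00147 and 0.00846). Both were low, at means of 1.82 and 2.84 CPM over the 16 libraries.

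In knockout, ethanol raised Cdc20, an activator of the anaphase complex, by 2.03 ± 0.49, adjusted p = 0.0123, and Mki67 by 1.34 ± 0.36, adjusted p = 0.0215. Cdc20 was low, at a mean of 1.03 CPM over the 16 libraries. The Mki67 call was lost without KO-EtOH 2 or KO-ctr 1, 2 or 3, with 0.84 without KO-EtOH library 2 and 0.65 (adjusted p = 0.206) without KO-EtOH libraries 1 and 2. Without KO-EtOH libraries 1 and 2 both, Cdc20 was at 1.04 with an adjusted p of 0.190. The uncalled genes of the list with the highest levels were Mki67 on control diet (0.83 ± 0.39, adjusted p = 0.183), Ccne2 for Tsc1 loss after ethanol (0.12 ± 0.31, adjusted p = 0.787) and E2f1 for ethanol in wild type (-0.39 ± 0.18, adjusted p = 0.112) and in knockout (0.38 ± 0.17, adjusted p = 0.142). The summed level of the list was 28.8 to 60.6 CPM in KO-EtOH, 18.4 to 27.0 CPM in KO-ctr, 11.9 to 17.5 CPM in WT-EtOH and 16.8 to 25.4 CPM in WT-ctr livers. The interaction was called for 0 of the 12, with 9 higher and 0 lower at an unadjusted p under 0.05 and 3 and 0 by DESeq2.

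Immediate early genes and targets of ATF4 and CHOP, the transcription factors of the integrated stress response, were read because Btg2, Gadd45a, Gadd45b and Cdkn1a are known to answer such signals too. Of 13 tested immediate early genes (16 listed, without Fosb, Egr2 and Egr3), ethanol raised 9 and lowered 0 in wild type and raised 2 and lowered 0 in knockout, with medians of 1.75 and 0.43. Tsc1 loss lowered 5 and raised 0 after ethanol and raised 2 and lowered 0 on control diet, with medians of -0.81 and 0.65. Of the list, 69.2% were called for ethanol in wild type, against 33.5% of all tested genes. The shares called for ethanol in knockout (15.4%), Tsc1 loss after ethanol (38.5%) and Tsc1 loss on control diet (15.4%) lay near the 14.1%, 38.7% and 12.3% of all tested genes. At an unadjusted p under 0.05 ethanol gave 11 higher and 0 lower in wild type and 4 and 2 in knockout. Tsc1 loss gave 0 higher and 7 lower after ethanol and 4 and 0 on control diet. DESeq2 called 10 and 0 for ethanol in wild type, 3 and 1 in knockout, 0 and 6 for Tsc1 loss after ethanol and 3 and 0 on control diet. With total counts in place of TMM these were 8 and 0, 0 and 0, 0 and 4, and 2 and 0. Klf6, Myc and Ier2 rose with ethanol in wild type by 3.19 ± 0.40, 2.71 ± 0.43 and 1.25 ± 0.21 (adjusted p = 5.52e-05, 2.93e-04 and 4.24e-04), and Ier2 was lower with Tsc1 loss after ethanol (-1.35 ± 0.21, adjusted p = 2.19e-04). Zfp36, the most abundant uncalled one, had log2 fold changes of 0.80 and -0.79 with Tsc1 loss on the control diet and after ethanol, and of 0.65 and -0.94 with ethanol in wild type and in knockout. The interaction was called for 1, Ier2, as lower (-1.39 ± 0.30, adjusted p = 0.0317), and for 0 higher, with 10 and 0 at an unadjusted p under 0.05 and 5 and 0 by DESeq2. The call of Ier2, named after its value was seen, was lost in 11 of 16 omissions of 1 library (-1.57 to -1.25), without KO-ctr 1, KO-ctr 2, KO-ctr 3, KO-ctr 4, KO-EtOH 1, KO-EtOH 2, KO-EtOH 3, WT-ctr 1, WT-ctr 3, WT-ctr 4, WT-EtOH 1. It was also lost with no filter (adjusted p = 0.0613) and without KO-EtOH libraries 1 and 2 (adjusted p = 0.0880) or WT-EtOH libraries 1 and 4 (adjusted p = 0.134).

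All 12 ATF4 and CHOP targets rose with ethanol in wild type and 9 rose in knockout, with 0 lower in both, and the medians were 2.77 and 1.45. Tsc1 loss raised 1 and lowered 4 after ethanol and raised 3 and lowered 0 on control diet, with medians of -0.51 and 0.86. Over all tested genes, 33.5% and 14.1% were called for ethanol in wild type and in knockout, 38.7% for Tsc1 loss after ethanol, near the 41.7% of the list, and 12.3% on control diet. At an unadjusted p under 0.05 there were 12 higher with ethanol in wild type and 10 in knockout, 0 lower in both, and 4 higher and 0 lower with Tsc1 loss on control diet. DESeq2 called 12 and 9 higher with ethanol, 0 lower in both, and 4 higher and 0 lower with Tsc1 loss on control diet. With total counts in place of TMM, ethanol raised 10 in wild type and 6 in knockout, with 0 lower in both. Under the same scaling, Tsc1 loss after ethanol raised 1 and lowered 2. The 12 genes include Atf4 itself. Ddit4, an inhibitor of mTORC1, was at 32.7 to 80.0 CPM in KO-EtOH and 14.1 to 28.1 CPM in KO-ctr livers, and at 121 to 224 CPM in WT-EtOH and 3.68 to 5.05 CPM in WT-ctr livers. It rose with ethanol by 5.23 ± 0.33, adjusted p = 2.20e-07, in wild type and 1.39 ± 0.27, adjusted p = 0.00468, in knockout. Its interaction, -3.84 ± 0.41, adjusted p = 9.18e-04, was called in every omission of 1 library (-4.09 to -3.62) and was picked out after its value was seen. It was 1 of 2 called lower, with 0 higher (5 and 0 at an unadjusted p under 0.05, 3 and 0 by DESeq2), and the other, Chac1, was called in 3 of 16 omissions. Ddit3, which encodes CHOP, rose with ethanol by 2.49 ± 0.36 in wild type and 1.79 ± 0.36 in knockout (adjusted p = 1.66e-04 and 0.00532). Nupr1, a stress-induced nuclear protein, rose with Tsc1 loss on control diet (3.34 ± 0.53, adjusted p = 0.00112) and after ethanol (3.49 ± 0.47, adjusted p = 8.99e-05). The most abundant uncalled targets were Atf5 for Tsc1 loss (0.25 on control diet and 0.36 after ethanol) and Fgf21 for ethanol in knockout (1.67).

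The genes most like 4 of the 10 were found over the 16 libraries by the root mean square difference of log2 CPM, each gene centred on its own mean, among tested genes of at least 2 CPM on average. For Cdkn1a these were Gm45774 (0.877), Gstm3 (0.905) and Cidec (0.940). For Eda2r they were 5330417C22Rik (0.617), Ttc39a (0.634) and Evc (0.653). Ccng1 lay nearest to Pld3 (0.134), Dab2ip (0.153) and Ermp1 (0.156), and Gadd45b to Slc16a6 (0.557), Retreg1 (0.570) and Ppl (0.577). The 16 libraries share the 4 groups.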

How the data were processed

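RNA of mouse liver was sequenced in 16 libraries, and the authors deposited 1 table of raw read counts per gene for all libraries. Per the labels' protocols, RNA was extracted with Trizol and poly(A) libraries of a stranded kit were read from 1 end. Per the submitters' processing notes, the tools were Trimmomatic 0.36, HISAT2 2.1.0 and HTSeq, and the build was GRCm38. No source used here gives the version of HTSeq or its strand and multi-mapping settings. The authors' own table of comparisons was not used. The table has 55487 rows with gene symbols and no gene identifiers. Its 7436 rows without a symbol, 0.226 to 0.479% of counts per library, entered neither library sizes nor tests.

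Counts were analysed in R 4.3.3 with edgeR 4.0.16. The filter on low counts (filterByExpr) kept 14346 genes, libraries were scaled by TMM, and 1 quasi-likelihood model was fitted to the 4 groups (12 residual degrees of freedom, common biological coefficient of variation 0.205). Knockout was compared with wild type on each diet, ethanol with control diet in each genotype, and the ethanol effects of the genotypes with each other (the interaction). Calls took a Benjamini-Hochberg adjusted p under 0.05 over all tested genes, and errors beside log2 fold changes are standard errors from the fit. CPM are counts relative to the TMM-adjusted library size, and counts, which have no molecular identifiers, limit the precision of genes with few of them. The fit was tested on simulated data with 200 genes changed in KO-ctr alone and the same spread for every gene. Such data do not stand for genes with a wide spread between libraries, such as Gadd45a. No pair of libraries of a group agreed within counting noise, so all 16 were used.

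The 10 genes, the gene lists and the tests were chosen with earlier results of these data known. Of each further list, up to 3 called genes with the smallest p in each pairwise comparison and the most abundant uncalled gene were eligible to be named, with up to 5 for the wider p53 targets and the regulators of p53. Genes named for an interaction were chosen after their values were seen. One gene of the regulators, Cop1, was matched through a synonym. Alternatives were DESeq2 1.42.0, other scalings and filters, a replicate block, fits of only the groups compared, and libraries left out singly or in pairs. Gene coordinates and exon lengths are those of GENCODE M21 on GRCm38, and promoter sequences those of RefSeq on GRCm38.p6. Tables and plots were made with Python 3.11.15, pandas 2.3.3 and matplotlib 3.10.9.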

Additional observations from a re-analysis of the deposited data

Results flagged for a closer look

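In each group of 4 libraries, the library farthest from the others was compared with the spread of its group by Dixon's criterion, for 40 groups of libraries over the 10 genes. Chance alone would pick about 1 in 20 groups. The library singled out for Mdm2 was KO-ctr library 3, at 58.6 CPM against 38.5 to 58.6 CPM over its whole group. For Phlda3 it was KO-EtOH library 2, at 10.7 CPM in a group of 1.12 to 10.7 CPM. For Gadd45a it was WT-ctr library 1, at 7.74 CPM in a group of 4.37 to 7.74 CPM.

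The ethanol effect differed between knockout and wild type, by the test of the difference itself, for Cdkn1a (-3.34 on the log2 scale), Btg2 (-3.60), Gadd45b (-2.41) and Trp53inp1 (-2.74). All 4 differences are knockout minus wild type, so the estimated ethanol response of these genes was smaller in knockout livers. The calls depended on single libraries and on the filter. Without WT-ctr library 1, 3 or 4, 0 of the 10 genes were called, and with no filter 1 was.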

How the results depend on the processing

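Of 1239 alternative values for the log2 fold changes of the 10 genes, 1121 kept direction and side of the threshold, 25 passed it newly, 64 no longer passed and 29 changed sign. No change of sign was of a called value. Alternatives that moved a count by over 1.5 times follow, and the cause was not tested. Of the 10 genes, 5 in place of 3 were called for Tsc1 loss on control diet with total counts in place of TMM, by DESeq2 and with only the groups compared. With total counts, 3 in place of 5 wider targets were called for ethanol in knockout, and the interaction was called for 101 of all tested genes in place of 259, 2 of the 10 genes in place of 4 and 1 wider target in place of 2. DESeq2 called 731 interactions, and with no filter the interaction was called for 1 of the 10 genes. Without KO-EtOH libraries 1 and 2, 9 wider targets in place of 16 were called for Tsc1 loss after ethanol, 2 of the 10 genes for ethanol in knockout, and the interaction for 116 genes, 1 of the 10 genes and 0 wider targets. Leaving out WT-EtOH libraries 1 and 4, chosen after seeing the data, gave 3687 genes in place of 5551 and 10 wider targets for Tsc1 loss after ethanol, 2680 genes in place of 4811 and 7 wider targets in place of 14 for ethanol in wild type, and interactions for 57 genes, 2 of the 10 genes and 0 wider targets.

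Leaving out 1 library at a time, the numbers of all tested genes, of the 10 genes and of wider targets called ranged over 1091 to 2167, 2 to 4 and 7 to 12 for Tsc1 loss on control diet. They ranged over 4887 to 5627, 8 to 9 and 12 to 16 for Tsc1 loss after ethanol, and 3890 to 5226, 5 to 6 and 10 to 15 for ethanol in wild type. For ethanol in knockout they ranged over 1114 to 2279, 1 to 2 and 3 to 7, and for the interaction over 53 to 495, 0 to 5 and 0 to 2. All tested genes called for Tsc1 loss on control diet numbered 1766, and 1131, 1140 and 1091 without KO-ctr library 1, 3 or 4 and 1137 and 1135 without WT-ctr library 1 or 4. For ethanol in knockout they numbered 2024, and 1310 without KO-EtOH library 4 and 1326, 1114 and 1296 without KO-ctr library 1, 2 or 4.

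Deviations of same-numbered libraries correlated from -0.14 to 0.41. They were not compared with those of differently numbered libraries, so they do not decide whether replicate numbers pair the libraries. With the replicate block, 1778, 5532, 4877, 2002 and 255 genes were called in the 5 comparisons, 3, 8, 5, 1 and 4 of them among the 10 genes and 9, 16, 14, 5 and 2 among the wider targets. Under it Phlda3 lost its call for Tsc1 loss after ethanol (1.02, adjusted p = 0.113), as did Tsc1 (-0.36, adjusted p = 0.0549), and Tob2 lost that of its interaction (-1.38, adjusted p = 0.0526).

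Signs changed as follows, none of them called. Eda2r was at -0.47 for ethanol in wild type and 0.32 for the interaction without WT-EtOH libraries 1 and 4. Without KO-EtOH libraries 1 and 2, Gadd45a was at -0.16 for ethanol in knockout, and the interactions of Ccng1 and Phlda3 were -0.11 and -0.99. The interaction of Bax was 0.089 with total counts, and that of Phlda3 was -0.16 with the replicate block. Leaving out 1 library, Gadd45a ranged over -0.19 to 0.33 and Gadd45b over -0.084 to 0.59 for Tsc1 loss on control diet, Eda2r over -0.025 to 0.50 for ethanol in wild type, and Eda2r over -0.56 to 0.13 and Gadd45a over -0.22 to 0.39 for ethanol in knockout. The interaction of Bax ranged over -0.15 to 0.083, that of Ccng1 over -0.22 to 0.16 and that of Phlda3 over -0.86 to 0.58. Without WT-EtOH libraries 1 and 4, Plk3 was at 0.095 and Ccne2 at -0.036 for Tsc1 loss after ethanol. With total counts, Ei24 was at -0.0054 for ethanol in wild type, and Usp7 at 0.060 and 0.030 for Tsc1 loss on control diet and after ethanol and at -0.13 for ethanol in wild type. Over single omissions, Usp7 ranged over -0.037 to 0.045 and Tob1 over -0.23 to 0.056 for ethanol in wild type, Tob1 over -0.26 to 0.0096 for ethanol in knockout and Ccne2 over -0.028 to 0.30 for Tsc1 loss after ethanol. Trp53 for ethanol in knockout was at 0.00592 with DESeq2's size factors, 0.00490 by DESeq2, 0.00298 with no filter, 0.00388 with the replicate block, 0.000422 with only the groups compared and 0.00294 without WT-EtOH libraries 1 and 4, and at -0.090 to 0.068 over single omissions.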
